A study of Mus musculus with 4 samples.

Results

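The VEGF and angiopoietin axis was examined as 10 genes taken by symbol from the table of counts: the ligand genes Vegfa, Vegfb, Vegfc and Pgf, the VEGF receptor genes Flt1, Kdr and Flt4, the angiopoietin genes Angpt1 and Angpt2, and their receptor gene Tek. They are 10 of 56748 genes in the table, and all 10 were among the 15320 genes that passed the expression filter. Bulk RNA sequencing of mRNA was available for 2 saline and 2 ADC/cmLumiOpto samples from BALB/cJ mice, females aged 7 weeks when 4T1-FLuc cells were injected into the tail vein, so that both groups carried lung metastases of this luciferase-expressing triple-negative breast cancer (TNBC) line. The labels give the controls as saline or PBS, and the treated mice as CD276-DM1 at 16 mg/kg with cmLumi-Olap over 3 weeks, a dose that differs from that of the published methods, which do not explain "Olap". CD276-DM1 is an antibody-drug conjugate (ADC) that carries the microtubule poison mertansine to CD276 on the cell surface, and cmLumiOpto is a virally delivered light-gated channel that depolarizes mitochondria. The labels name tumor cells harvested from the lung and the methods name dissociated lung tissue, and nothing states that the samples with the same number belong together.

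Total counts lay between 15263375 and 19675436 per sample, at which 3 counts correspond to 0.146 to 0.202 CPM (counts per 1000000, with library sizes scaled by edgeR's TMM factors), for counting error only. Epithelial and lung genes were present. The keratin gene Krt8, which carcinoma and lung epithelium share, was at 1141 and 1543 CPM in the saline samples and at 1131 and 1117 CPM in the treated samples, and the summed CPM of 8 alveolar type 2 markers, led by the surfactant gene Sftpc, was 1752 and 519 under saline and 5619 and 4883 under treatment. Of these 8 markers 6 were higher and 1 lower at an unadjusted p under 0.05 in edgeR, against 11.0% higher and 12.2% lower over all 15320 genes tested. In bulk RNA, fewer cells of a type and less RNA per cell cannot be told apart. Tests were run between samples, and no label states whether each sample was a separate mouse, so p-values refer to differences between these 4 samples only. In edgeR and DESeq2 the variance of each gene was estimated with information from the other genes.

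VEGF-A is the main growth signal of blood vessels and acts through the receptor tyrosine kinase VEGFR2 (Kdr), while VEGFR1 (Flt1), whose soluble form traps ligand, also binds VEGF-B and placental growth factor (Pgf). VEGF-C acts mainly on VEGFR3 (Flt4), the receptor known for lymphatic growth. Angiopoietin-1 activates TIE2 (Tek) and keeps vessels quiet, whereas angiopoietin-2, released by activated endothelium, can oppose it. In the lung, VEGF-A from the alveolar epithelium maintains the capillary bed, and tumors use the same ligands to recruit vessels.

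The sequences just upstream of the start are shown for 2 genes whose levels differed most between the groups, Tek and Vegfc, and for the VEGF receptor genes Flt1 and Kdr, whose levels did not separate the groups. They are the 250 bases before the RefSeq start on GRCm38.p6, written 5′ to 3′ in the direction of the gene. Capitals mark the letters ACGTG or GCGTG (the core bound by hypoxia-inducible factors), AGGAA (a core of ETS factors), TGACGTCA (a cAMP response element) and GGGCGG (a GC box), on either strand. In these 4 sequences no match of one motif overlaps a match of another.
Tek promoter, chr4:94739039-94739288, plus strand: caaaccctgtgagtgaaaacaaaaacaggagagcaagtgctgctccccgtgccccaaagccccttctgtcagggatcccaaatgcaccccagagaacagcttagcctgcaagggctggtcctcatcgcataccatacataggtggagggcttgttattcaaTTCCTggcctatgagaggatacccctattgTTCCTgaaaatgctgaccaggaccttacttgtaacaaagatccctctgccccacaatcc
Vegfc promoter, chr8:54077282-54077531, plus strand: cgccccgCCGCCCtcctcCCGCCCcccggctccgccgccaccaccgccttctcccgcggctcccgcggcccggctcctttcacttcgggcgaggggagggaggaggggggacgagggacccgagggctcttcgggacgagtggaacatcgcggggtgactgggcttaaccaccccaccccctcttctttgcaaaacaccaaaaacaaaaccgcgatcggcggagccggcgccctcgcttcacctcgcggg
Flt1 promoter, chr5:147726012-147726261, minus strand: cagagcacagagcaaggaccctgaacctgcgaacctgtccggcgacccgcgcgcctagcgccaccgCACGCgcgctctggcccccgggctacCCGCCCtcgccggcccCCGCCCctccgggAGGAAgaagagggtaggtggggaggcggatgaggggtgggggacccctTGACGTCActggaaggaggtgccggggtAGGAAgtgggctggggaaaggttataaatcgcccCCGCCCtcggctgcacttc
Kdr promoter, chr5:75978456-75978705, minus strand: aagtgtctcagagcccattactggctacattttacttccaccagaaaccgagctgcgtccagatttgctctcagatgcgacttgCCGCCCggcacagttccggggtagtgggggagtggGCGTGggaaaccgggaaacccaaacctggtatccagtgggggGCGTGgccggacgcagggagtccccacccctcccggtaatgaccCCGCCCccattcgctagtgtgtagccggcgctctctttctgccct
The Tek sequence holds 2 AGGAA matches and none of the other motifs, and its GC content of 51.2% is close to the median of 52.4% over all 32851 promoters of the same length. The Vegfc sequence, at 71.6% GC, holds 2 GC boxes and no other match. The Flt1 sequence holds 2 AGGAA matches, the TGACGTCA element, 3 GC boxes and 1 hypoxia core, and that of Kdr 2 hypoxia cores and 2 GC boxes. Among all promoters 60.3% hold AGGAA, 38.6% a hypoxia core, 32.7% a GC box and 1.55% TGACGTCA. Tek and Vegfc thus share no motif of this search. RefSeq promoters were matched for 8 of the 10 genes, not for Angpt1 and Angpt2, and all are described as letters present in the window only.

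To compare genes with each other, CPM were divided by the gene length in kilobases listed by the authors. On this scale Vegfb, Vegfa and Vegfc stood above the receptors in the saline group. Vegfb (22.8 CPM per kilobase) and Vegfa (19.9) came first and overlapped, Vegfc followed at 10.9, and its samples lay below those of Vegfa and above those of Flt1. The genes Flt1 (7.35), Kdr (6.93), Angpt2 (6.62), Pgf (5.62) and Angpt1 (5.25) formed a run in which each overlapped its neighbor. Tek (2.60) and Flt4 (2.25) came last, overlapped each other and lay below Angpt1. In the ADC/cmLumiOpto group the order was Vegfb (21.2), Vegfc (17.2), Vegfa (15.9), Pgf (7.02), Tek (6.91), Flt1 (6.28), Kdr (6.15), Angpt2 (5.82), Angpt1 (4.72) and Flt4 (1.81), with gaps between neighbors only after Vegfb, Vegfa and Angpt1. Tek therefore moved from rank 9 to rank 5 of the 10 genes. Over all samples, the 10 genes lay between percentile 30.2 (Flt4) and percentile 83.4 (Vegfb) of the genes tested on this scale.

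The ADC/cmLumiOpto samples were then compared with the saline samples. Of the axis, Tek and Vegfc were higher in both treated samples than in both saline samples, by 2.65-fold and 1.58-fold. The other 8 genes overlapped between the groups, with log2 fold changes between -0.33 and 0.32. By the quasi-likelihood (QL) test of edgeR, adjusted by the Benjamini-Hochberg method, no gene of the axis had an adjusted p under 0.05, and 0% of all 15320 genes passed. At an unadjusted p under 0.05 there were 2 of 10, both higher, against 23.2% of all genes tested in either direction (11.0% higher and 12.2% lower). The share is thus near that of all genes. The edgeR exact test called 1 of the 10 at an adjusted p under 0.05 (Tek, against 7.64% of all genes, 3.96% higher and 3.68% lower) and DESeq2 also 1 (Tek, against 9.63%, 4.16% higher and 5.47% lower). Groups without overlap were likewise common over all genes, at 28.1% higher and 28.8% lower (57.0% in all), against 2 and 0 of 10 here. The median log2 fold change of the 10 genes was -0.16, beside 0.03 for all genes tested, and 7 of the 10 were below 0, as were 48.0% of all genes.

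**Figure D1:**
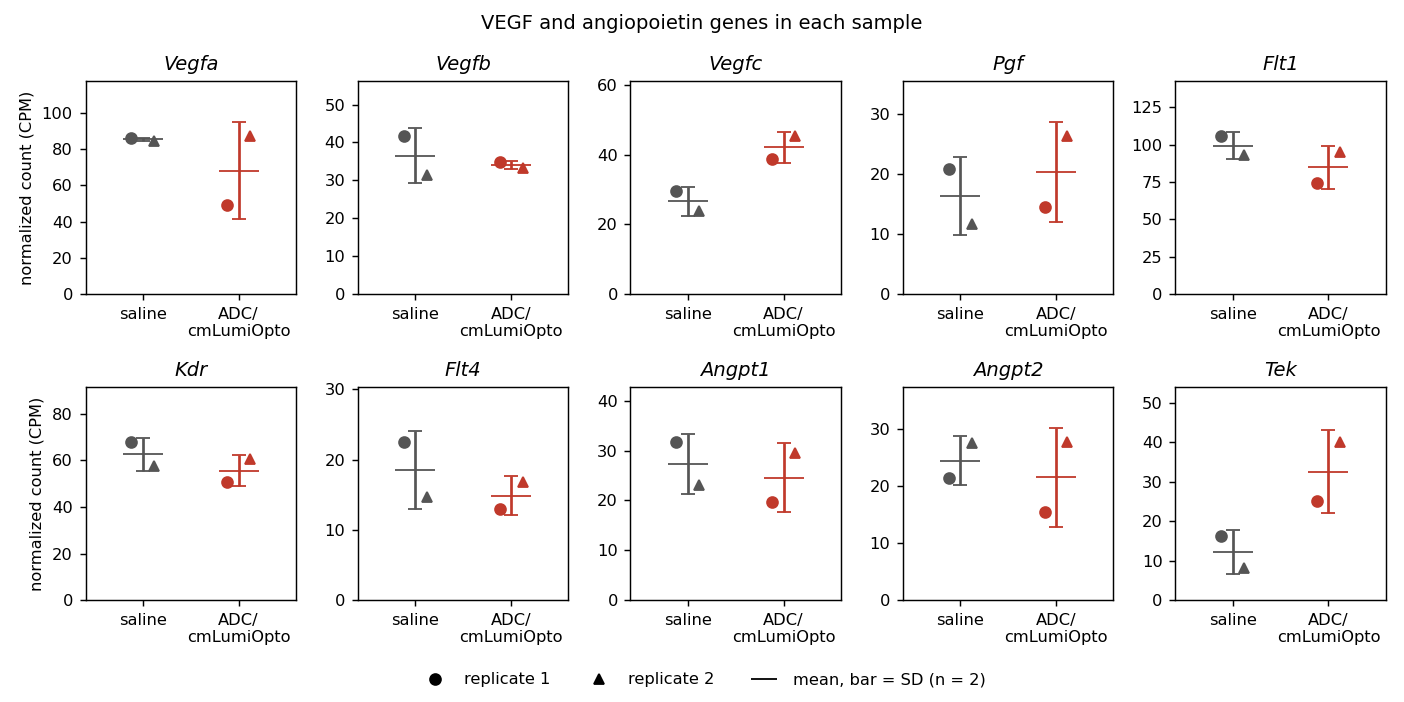
Normalized counts (CPM, y axis from 0) of the 10 axis genes in the saline (gray) and ADC/cmLumiOpto (red) samples, with circles for replicate 1, triangles for replicate 2, and lines for the mean and SD of 2 samples. Only for Vegfc and Tek do both treated samples lie above both saline samples, at 38.9 and 45.3 against 29.5 and 23.7 CPM for Vegfc.

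Among the ligands, Vegfa (ENSMUSG00000023951, chromosome 17, 46327919 to 46343295) had 1375 and 1257 counts under saline and 866 and 1786 under treatment, or 86.0, 84.7, 49.1 and 87.1 CPM. The saline samples were nearly equal, and the treated samples lay 1.78-fold apart, with replicate 1 below and replicate 2 just above the saline values. The log2 fold change was -0.33 (standard error 0.28, 95% interval -0.99 to 0.34, adjusted p = 0.507 in edgeR's QL test). Without ADC/cmLumiOpto replicate 2 it was -0.80 at an unadjusted p of 0.00503 in edgeR (adjusted p = 0.106, the lowest in a range up to 0.935 over the alternatives), and without replicate 1 it was 0.04, so the direction rested on replicate 1 of the treated group.

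Vegfb (ENSMUSG00000024962, chromosome 19, 6959841 to 6965019), a ligand of VEGFR1 alone, was at 41.6 and 31.5 CPM under saline and at 34.8 and 33.3 CPM under treatment. Both treated values lay between the saline values, and the log2 fold change was -0.10 (95% interval -0.58 to 0.37). Pgf (ENSMUSG00000004791, chromosome 12, 85213409 to 85224564), the other ligand specific to VEGFR1, was at 20.9 and 11.7 CPM under saline and at 14.5 and 26.3 CPM under treatment. Its 2 samples within each group differed by 1.78-fold and 1.82-fold, more than the group means did (1.25-fold), and its interval ran from -0.61 to 1.25 around a log2 fold change of 0.32.

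Vegfc (ENSMUSG00000031520, chromosome 8, 54530641 to 54640131), the ligand of VEGFR3, had 472 and 352 counts under saline and 686 and 928 under treatment. These were 29.5 and 23.7 against 38.9 and 45.3 CPM, a mean of 26.6 ± 4.09 (SD, n = 2) against 42.1 ± 4.51 (SD, n = 2). The groups did not overlap, and the gap between them exceeded the spread within either. The log2 fold change was 0.66 (standard error 0.20, 95% interval 0.19 to 1.13, unadjusted p = 0.0132 and adjusted p = 0.139 in edgeR's QL test). It was above 0 under each of 13 alternatives, between 0.50 and 0.83, with adjusted p values between 0.0491 (edgeR without the expression filter) and 0.510.

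The 3 VEGF receptor genes had log2 fold changes between -0.31 and -0.17. Flt1 (VEGFR1, ENSMUSG00000029648, chromosome 5, 147498414 to 147662821) had the most counts of the axis, 1690 and 1379 under saline and 1315 and 1952 under treatment, which is 106 and 92.9 against 74.5 and 95.2 CPM. Treated replicate 1 was lowest, and replicate 2 lay between the saline samples. The fitted log2 value was -0.23 (standard error 0.19, 95% interval -0.68 to 0.23). The table counts whole genes, so membrane and soluble VEGFR1 transcripts were not separated.

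Kdr (VEGFR2, ENSMUSG00000062960, chromosome 5, 76093487 to 76139118), the main signaling receptor, was at 67.6 and 57.6 CPM under saline and at 50.8 and 60.4 CPM under treatment. Its log2 fold change was -0.17 (standard error 0.18, 95% interval -0.60 to 0.26), so a fall of more than 0.60 or a rise of more than 0.26 lay outside the interval. Flt4 (VEGFR3, ENSMUSG00000020357, chromosome 11, 49500090 to 49543566) was at 22.4 and 14.6 CPM under saline and at 12.9 and 16.9 CPM under treatment, giving -0.31 on the log2 scale (95% interval -1.02 to 0.39). For all 3 receptor genes the treated samples overlapped the saline samples, replicate 1 was the higher saline sample and replicate 2 the higher treated sample. Their adjusted p values lay between 0.502 and 0.592 in edgeR's QL test. Once the trend of the counts on gene length was removed, Flt1 (13504 bases) and Kdr (9030 bases) changed sign, to 0.08 and 0.05.

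The angiopoietin ligands overlapped between the groups. Angpt1 (ENSMUSG00000022309, chromosome 15, 42288119 to 42540373), the activating ligand of TIE2, was at 31.6 and 23.1 CPM under saline and at 19.7 and 29.5 CPM under treatment. Angpt2 (ENSMUSG00000031465, chromosome 8, 18740279 to 18791578), the context-dependent antagonist, was at 21.4 and 27.4 CPM under saline and at 15.4 and 27.6 CPM under treatment. Their log2 fold changes were -0.15 (95% interval -0.81 to 0.50) and -0.18 (95% interval -0.94 to 0.57). In the treated group Angpt2 differed by 1.80-fold between the samples, and both ligands were higher in replicate 2.

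Tek (TIE2, ENSMUSG00000006386, chromosome 4, 94627526 to 94763213) stood apart from its ligands. It had 260 and 123 counts under saline and 445 and 819 under treatment, which is 16.3 and 8.29 against 25.2 and 39.9 CPM. The mean went from 12.3 ± 5.63 (SD, n = 2) to 32.6 ± 10.4 CPM (SD, n = 2). Each treated sample exceeded each saline sample, although the samples within the groups differed by 1.96-fold (saline) and 1.58-fold (treated). The log2 fold change was 1.41 (standard error 0.38, 95% interval 0.50 to 2.31, unadjusted p = 0.00846 and adjusted p = 0.125 in edgeR's QL test). It lay between 1.02 and 1.97 under 13 alternatives. The adjusted p was 0.0198 in the edgeR exact test and 0.00917 in DESeq2, within a range of 1.01e-05 (edgeR without the expression filter) to 0.460 (edgeR without saline replicate 2). Without ADC/cmLumiOpto replicate 2 the unadjusted p in edgeR was 0.0513 for Tek and 0.0695 for Vegfc, and without saline replicate 2 it was 0.0255 for Tek and 0.0810 for Vegfc.

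**Figure D2:**
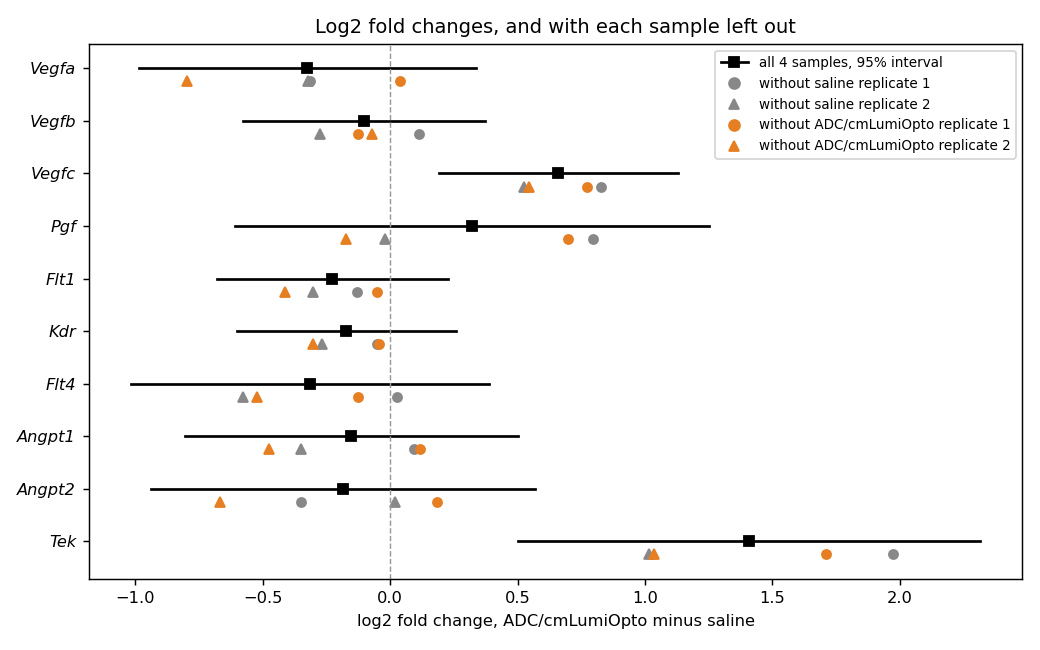
Log2 fold changes of the 10 axis genes (x axis, ADC/cmLumiOpto minus saline), with squares and lines for the estimate and 95% interval from all 4 samples, and gray and orange symbols for the estimates with a saline or treated sample left out. The intervals of Vegfc (0.19 to 1.13) and Tek (0.50 to 2.31) lie above 0, and those of the other 8 genes include 0.

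The samples within a group also differed along the axis. In 9 of the 10 genes saline replicate 1 was above replicate 2, the exception being Angpt2, and in 9 of the 10 ADC/cmLumiOpto replicate 2 was above replicate 1, the exception being Vegfb. Over all 15320 genes tested these shares were 50.5% and 52.0%. The summed CPM of 14 pan-endothelial markers was ordered in the same way, at 849.6 and 654 under saline and 979.5 and 1423 under treatment.

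The balance of ligands and receptors was followed as ratios of CPM per kilobase within each sample, which need no scaling between samples. With 2 samples against 2, the smallest two-sided p of an exact permutation test is 0.333. The ratio of Vegfc to Flt4, ligand to receptor, was 4.42 and 5.45 under saline and 10.1 and 9.01 under treatment. The treated ratios were higher by 0.96 on the log2 scale (exact permutation p = 0.333), and by 0.59 without the trend on gene length. The other ratios overlapped. Vegfa to Flt1 was 2.56 and 2.87 against 2.08 and 2.88 (lower in both treated samples, by 0.45 on the log2 scale, with the trend on gene length removed), Vegfa to Kdr 2.68 and 3.10 against 2.04 and 3.04, and Flt1 to Kdr stayed between 0.981 and 1.08 in the 4 samples. Angpt2 to Angpt1 was 0.957 and 1.68 under saline and 1.10 and 1.32 under treatment, so the treated values lay within the range of the saline values.

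Since Flt1, Kdr, Flt4, Tek and Angpt2 are made largely by endothelial cells, their levels were set against endothelial markers in the same sample. Of 14 pan-endothelial markers 13 had a log2 fold change above 0, with a median of 0.78, and 7 had an unadjusted p under 0.05 in edgeR, all higher (11.0% of all genes). The spread of the markers was wide, as shown by genes of which all but Eng were chosen after their values were seen. Ramp2, an adrenomedullin receptor subunit, had a log2 fold change of 1.71 and Egfl7, a secreted endothelial protein, of 1.57, whereas the junction gene Cdh5 (0.02), the guidance receptor gene Robo4 (-0.10) and the TGF-β co-receptor gene Eng (0.00), which had the highest mean CPM of the list, were near 0. Relative to the mean log2 CPM of the 14 markers, Flt1 was at 1.29 and 1.62 in the saline samples and at 0.51 and 0.26 in the treated samples. Kdr was at 0.64 and 0.93 against -0.05 and -0.40, Flt4 at -0.95 and -1.04 against -2.02 and -2.24, and Angpt2 at -1.01 and -0.14 against -1.77 and -1.53. Each of these 4 genes was lower in both treated samples than in both saline samples on this scale, by 1.01 to 1.13 (exact permutation p = 0.333 for each), and all 14 markers had a larger log2 fold change than each of them. The mean log2 CPM of the markers was itself 5.44 and 4.92 under saline and 5.71 and 6.32 under treatment. A gene with an unchanged level therefore also falls on this scale. How many of all genes were lower on it was not counted. Tek was at -1.41 and -1.86 in the saline samples and at -1.05 and -0.997 in the treated samples, higher by 0.61 (exact permutation p = 0.333), and 3 of the 14 markers had a larger log2 fold change.

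These values depended on the marker. Against Cdh5 alone, a choice made after its values were seen, the differences were -0.22 for Flt1, -0.16 for Kdr, -0.28 for Flt4 and -0.23 for Angpt2, and among these only Flt1 still separated the groups. Tek was 1.46 higher against Cdh5, with no overlap. Without the trend on gene length, the differences from the 14 markers were -0.76 (Flt1), -0.79 (Kdr), -0.93 (Flt4), -1.12 (Angpt2) and 0.65 (Tek), each without overlap. Leaving out saline replicate 2, the difference of Angpt2 was -0.64 and that of Tek 0.39.

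**Figure D3:**
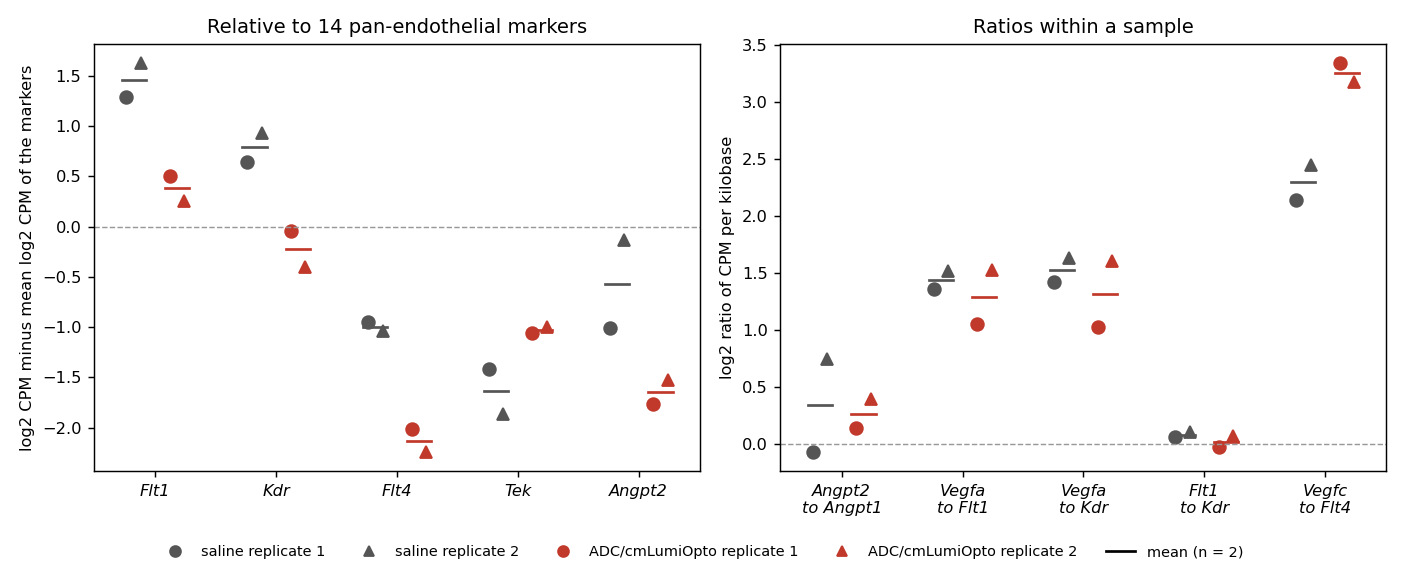
Left, log2 CPM of the receptor genes and Angpt2 minus the mean log2 CPM of 14 pan-endothelial markers in the same sample; right, log2 ratios of CPM per kilobase of pairs of axis genes. Gray and red symbols are the saline and ADC/cmLumiOpto samples and short lines the means of 2 samples. On the left, Flt1, Kdr, Flt4 and Angpt2 are lower and Tek higher in both treated samples, relative to a marker mean that is itself higher in both. On the right only Vegfc to Flt4 separates the groups.

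Other genes of the pathway were taken from 5 lists written with earlier results of these data known. By the QL test of edgeR 0 of their genes passed after adjustment, and the counts are at an unadjusted p under 0.05, against 11.0% higher and 12.2% lower over all genes. Of 8 tested genes for other ligands, co-receptors and receptor regulators, 1 was called, higher, and the median log2 fold change was 0.07. This was Vegfd, a second ligand of VEGFR3, at 2.44 and 3.17 CPM under saline and at 3.97 and 10.1 CPM under treatment (log2 fold change 1.33, adjusted p = 0.195 in edgeR). Nrp2, a co-receptor of VEGF-C, was at 320 and 353 against 263 and 276 CPM, with a log2 fold change of -0.32 and an unadjusted p of 0.0817 in edgeR. Tie1, the orphan partner of TIE2 named here after its values were seen, lay 0.36 higher on the log2 scale (standard error 0.20), less than Tek. Angpt4, named because it alone of this list did not pass the filter, had 1 to 3 counts per sample.

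Of 35 genes that carry the signal from VEGFR2 or TIE2 inside the cell, 4 were called higher and 7 lower, with a median of -0.14. The smallest p values were those of Foxo1, a transcription factor that TIE2 signaling holds out of the nucleus, at 84.0 and 83.4 against 40.0 and 48.8 CPM (log2 fold change -0.91), and of Bcar1, a focal adhesion scaffold, at 148 and 156 against 74.5 and 91.3 CPM (log2 fold change -0.88). Of 18 tested genes of endothelial activation, 3 were called higher and 5 lower, and the median was -0.33. They were led by Unc5b, a guidance receptor of sprouting vessels (232 and 198 against 134 and 131 CPM, log2 fold change -0.70), and Nid2, a basement membrane gene (30.9 and 30.6 against 10.9 and 18.4 CPM, log2 fold change -1.07). Both lists thus held calls in both directions.

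Of 10 genes listed as inhibitors of angiogenesis, 6 were called lower, Vash2 among them, and 0 higher, and the median log2 fold change was -0.80. Thbs2, a thrombospondin, was at 114 and 120 CPM under saline and at 64.1 and 44.0 CPM under treatment (log2 fold change -1.11). Vash2 was at 19.4 and 24.4 against 6.74 and 9.51 CPM (log2 fold change -1.43), although it belongs to the vasohibins as the member known to promote vessel growth. Of 20 genes of the hypoxia response, which drives Vegfa, 8 were called lower and 2 higher, with a median of -0.50. Ndrg1 was at 649 and 390 against 248 and 257 CPM (log2 fold change -1.04), and Pdk1, a kinase that limits pyruvate oxidation, at 49.3 and 53.5 against 22.7 and 33.1 CPM (log2 fold change -0.88). The 2 hypoxia-inducible factor genes, named after their values were seen, had fold changes of opposite sign, with Hif1a at -0.73 and the endothelial and alveolar Epas1 at 1.66 on the log2 scale. For the genes taken by p from the last 4 lists, the adjusted p was 0.116 or 0.123 in edgeR's QL test, and for Nrp2 it was 0.266. These genes, chosen by small p, all had an adjusted p under 0.05 in the edgeR exact test (0.00298 to 0.0372) and in DESeq2 (0.000975 to 0.0233). Nrp2 passed in neither (0.403 in the exact test and 0.290 in DESeq2). Over all genes 7.64% passed in the exact test and 9.63% in DESeq2.

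**Figure D4:**
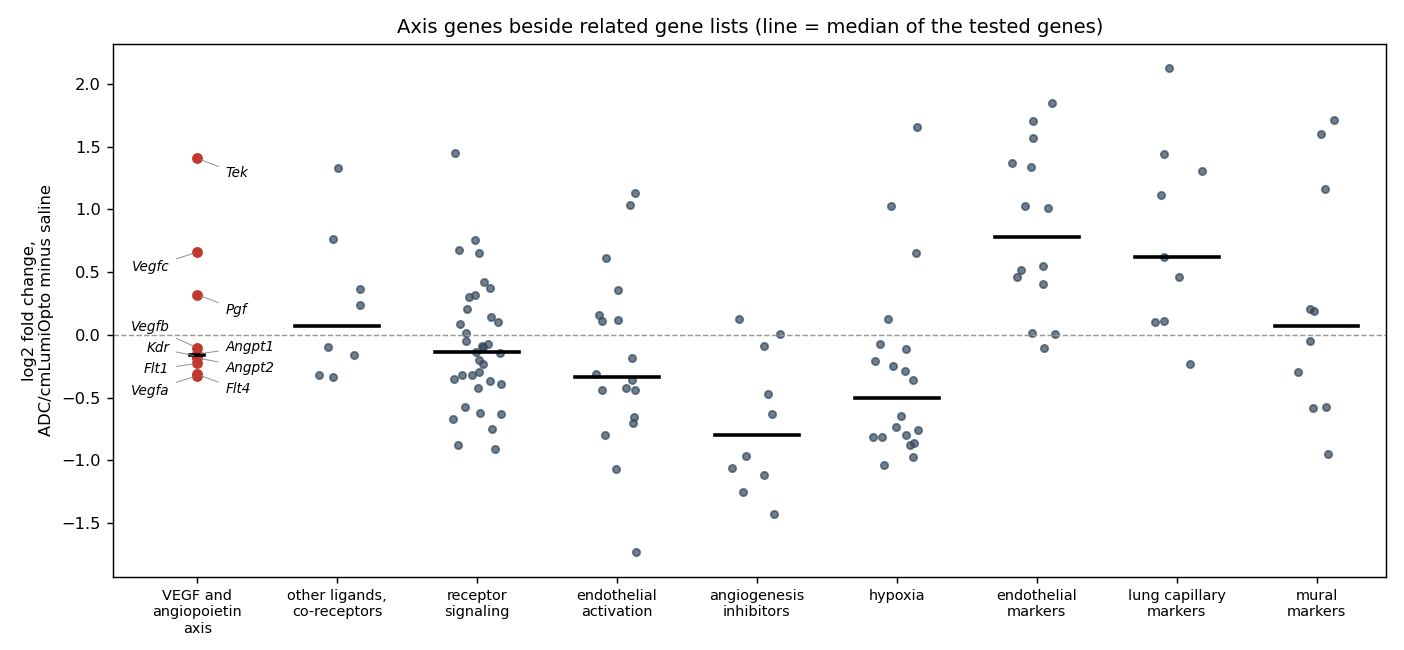
Log2 fold changes (y axis, ADC/cmLumiOpto minus saline) of the axis genes (red, named) beside those of the tested genes of 5 pathway lists and 3 marker lists (dark points), with a thick line for each median. The medians run from -0.80 for the list of angiogenesis inhibitors, which includes Vash2, to 0.78 for the endothelial markers, and that of the axis is -0.16.

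Markers of other cells also differed between the groups, and their part in the results for Tek and Vegfc was not tested. The counts of markers called, here and in the next paragraph, are at an unadjusted p under 0.05 in edgeR. Over all genes tested, 11.0% were higher and 12.2% lower at that threshold. The summed CPM of 8 alveolar type 1 markers, led by Ager, was 359 and 149 under saline and 836 and 861 under treatment, and 7 of the 8 genes were higher at an unadjusted p under 0.05 in edgeR. The 6 leukocyte markers, led by Lyz2, summed to 2264 and 1373 against 4886 and 5950 CPM, with 4 called higher and 0 lower. Of these markers S100a8 (454 and 170 against 422 and 3089 CPM) and Cd3e overlapped between the groups, and the other 4 were higher in both treated samples. The 9 lung capillary markers, led by Cd93, summed to 379 and 349 against 387 and 547 CPM, with 4 called higher and 0 lower. The sums of the alveolar, leukocyte and lung capillary lists were thus higher in both treated samples. For the lung capillary list the nearest samples were close (387 against 379 CPM), and Cd93 itself had a log2 fold change of -0.23. Of the 5 lymphatic markers, which bear on Flt4 and Vegfc, 1 was called, higher. They summed to 46.2 and 26.1 against 58.4 and 53.9 CPM and were led by Lyve1 (27.9 and 25.3 against 38.0 and 41.5 CPM), while Prox1, the defining factor of lymphatic endothelium, had 15 and 3 counts under saline and 11 and 11 under treatment. Mmrn1 had 69 and 1 counts under saline and 41 and 57 under treatment. Reln had 27 and 0 against 19 and 36 counts, and Ccl21a 182 and 8 against 288 and 151. Platelet markers, led by Pf4, summed to 12.6 and 26.4 against 22.7 and 29.6 CPM, with 2 of 4 tested called higher and Gp1bb at 0 in all samples. Pf4 is also in the list of inhibitors. Angpt4, S100a8, Cd3e, Prox1, Mmrn1, Reln, Ccl21a and Gp1bb were chosen for mention after their values were seen.

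Markers of mural cells, a source of Angpt1, were led by Acta2 and summed to 277 and 289 in the saline samples but to 204 and 215 under treatment, with 3 of 10 called higher and 2 lower. The median log2 fold change of this list was 0.07, with 5 genes above 0 and 5 below. Acta2 alone was at 126 and 148 against 89.7 and 52.2 CPM, so the lower sums do not describe all members. The 6 epithelial markers shared by carcinoma and lung, led by Krt8, summed to 2638 and 3022 against 2574 and 2476 CPM, with 0 called higher and 1 lower. The macrophage markers, led by C1qa, summed to 1179 and 1066 against 1283 and 998 CPM, so that they overlapped between the groups, and 1 of the 6 was called, lower. Saline replicate 2 had the lowest sum of the endothelial, alveolar, capillary, lymphatic and leukocyte lists. Of the axis, Tek, Vegfc, Vegfb and Pgf were also lowest in this sample, although Vegfb and Pgf overlapped between the groups. A link between these sums and the axis genes was not tested.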

How the data were processed

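Samples were grouped by the names in the labels, 2 saline and 2 ADC/cmLumiOpto, of the 4 per group that the methods give. The values the authors deposited are unnormalized counts per Ensembl gene for poly-A selected mRNA. The published methods state alignment with HISAT2 to GRCm38, the submitters' processing notes give mm39, and the counting program and the use of strand are not given in the sources used here. None of the 10 genes had its GRCm38 start or end in the table, so positions are given as deposited, and promoter sequences on GRCm38.p6 are from RefSeq. The members and lists were chosen with earlier results of these data known.

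The QL test came from edgeR 4.0.16 under R 4.3.3 (filterByExpr at 10 counts and 15 in total, TMM, glmQLFit, glmQLFTest, Benjamini-Hochberg adjustment over all 15320 genes, threshold 0.05). Standard errors were derived from the QL F statistic. Log2 ratios used a prior count of 0.5. The named genes are all 10 members, the 2 genes of each pathway list with the smallest p, and the marker of each list with the highest mean CPM; others are said to be chosen later. Promoters were searched by exact match. Alternatives were DESeq2 1.42.0, the edgeR exact test, other normalizations and filters, a replicate block, protein-coding genes only, removal of the trend on gene length (lowess span 0.3) and each sample left out. For the ratios and marker-relative values, the trend on length and Cdh5 alone were chosen after seeing the data. The procedure was also run on simulated counts with planted changes. There only the median estimated log2 fold change was required to match, and the calls are not reported here.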

Additional observations from a re-analysis of the deposited data

How the results depend on the processing

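Vegfc and Tek kept a log2 fold change above 0 under all 13 alternatives. The number of axis genes past an adjusted p of 0.05 was 0 with all 4 samples in the quasi-likelihood test, 1 in DESeq2, 1 in the edgeR exact test, 2 without the expression filter (Vegfc and Tek) and 0 under the other alternatives. Over all genes these fits called 0 of 15320, 1332 of 13834 (9.63%), 1170 of 15320 (7.64%) and 2259 of 25563. The replicate block called 607 of 15320. The same-numbered samples correlated at 0.084 in their deviations from the group means. With 2 pairs this does not settle whether they are paired, and no label pairs them. With the replicate number as a block 0 axis genes passed and Tek had an adjusted p of 0.0599 in edgeR. After removal of the length trend, Flt1 was at 0.0835 and Kdr at 0.0547 on the log2 scale, and the median of the axis was -0.013.

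With a sample left out, in edgeR fits in which the lone sample of a group is assumed to vary like the other group, the median of the axis lay between -0.358 and 0.0779, the count of axis genes higher at an unadjusted p under 0.05 between 0 (without ADC/cmLumiOpto replicate 2) and 2, that of genes lower between 0 and 1 (Vegfa, without the same sample), and the pathway genes called between 4 and 11 higher (10 with all samples, 4 without saline replicate 2) and between 17 and 30 lower (26 with all samples, 17 without saline replicate 1). Log2 fold changes that crossed 0 ranged from -0.798 to 0.0379 (Vegfa), -0.27 to 0.11 (Vegfb), -0.18 to 0.80 (Pgf), -0.58 to 0.0272 (Flt4), -0.48 to 0.12 (Angpt1) and -0.67 to 0.18 (Angpt2). Over all genes, 206 were called without saline replicate 1 and 0 or 1 without each of the others. These calls over all genes are at an adjusted p under 0.05. The share of all genes at an unadjusted p under 0.05 was not counted in these fits. The counts of axis and pathway genes with a sample left out therefore cannot be compared with all genes. The causes of the differences between the fits were not tested. Library-size and upper-quartile scaling moved the median of all genes from 0.03 to 0.07 and 0.11. Depth limits Angpt4, at 1 to 3 counts per sample.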
